A study of Homo sapiens with 18 samples.

Results

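The 10 genes described here encode the enzymes that make and break down polyamines and the proteins that control the first of these enzymes: ODC1, AMD1, SRM, SMS, SAT1, PAOX, SMOX, OAZ1, OAZ2, and AZIN1. They were chosen by their place in this pathway, with earlier results of these data known. All 10 were found by symbol among the 22034 genes of the count table. RNA-seq was performed on ribosomal RNA-depleted total RNA from 18 samples of VCaP, a prostate cancer cell line with the TMPRSS2:ERG fusion, so that every group shared this fusion. The first experiment used VCaP cells with a doxycycline-inducible short hairpin RNA against ERG. They were given vehicle, labelled DMSO and here called shERG-vehicle, or 1 µg/mL doxycycline (shERG-Dox). The labels give no time for either, and DMSO alone means the controls of the second experiment below. In the second experiment, parental VCaP cells received DMSO or 50 µM PBITE-1, a small molecule that binds the PNT domain of ERG, for 4, 8, or 12 h. There were 3 biological replicates in each of the 6 groups. The 3 PBITE-1 times share the same DMSO samples, whose time is not given, and no sample with Dox but without the ERG hairpin was analysed here. A response to Dox itself and a response to loss of ERG cannot be told apart in the first experiment, and the cell line and the agent cannot be told apart when the experiments are compared.

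Polyamines (putrescine, spermidine, and spermine) are small cations that bind nucleic acids and are needed for growth and translation. ODC1 turns ornithine into putrescine, AMD1 makes the decarboxylated S-adenosylmethionine that supplies the aminopropyl groups, and SRM and SMS add these groups to form spermidine and then spermine. SAT1 acetylates spermidine and spermine, PAOX oxidizes the acetylated products, and SMOX oxidizes spermine directly. Antizymes, encoded by OAZ1 and OAZ2, bind ODC1 and send it to the proteasome, and the antizyme inhibitor AZIN1 holds antizyme away from ODC1. Much of this control acts on translation and protein stability, which RNA counts do not show. The prostate is a tissue rich in polyamines, and ODC1 is a classical target of MYC.

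Promoter sequences are shown for ODC1, SRM, and SAT1, the members whose windows held a motif, and for AMD1, which fell after both agents and held none. The windows ran from 250 bases before to 50 bases after a start site in RefSeq on GRCh38.p14, and 7 of the 10 members had one or more, 10 windows in all. No window was given for PAOX, SMOX, or AZIN1. The E-box CACGTG, which MYC and related factors bind, and CCGGAAG, a core bound by ETS factors such as ERG, were searched on both strands, and they do not overlap each other in these windows. The E-box was present in 2548 of 35116 windows of all genes (7.26%) and the ETS core in 3603 (10.3%). Below, capitals mark the E-box or the ETS core, and the windows are trimmed to the bases outside annotated exons of GENCODE release 29. The ODC1 stretch lies in an intron and is carried past an internal start site to the end of the second E-box.
ODC1, chr2:10448002-10448120, minus strand: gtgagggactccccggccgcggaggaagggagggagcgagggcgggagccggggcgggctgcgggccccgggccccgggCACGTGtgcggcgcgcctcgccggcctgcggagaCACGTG
SRM, chr1:11060025-11060268, minus strand: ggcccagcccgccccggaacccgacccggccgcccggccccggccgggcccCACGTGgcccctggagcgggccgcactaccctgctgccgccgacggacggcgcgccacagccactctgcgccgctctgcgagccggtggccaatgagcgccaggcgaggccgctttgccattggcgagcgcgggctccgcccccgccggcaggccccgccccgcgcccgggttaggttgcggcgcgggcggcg
SAT1, chrX:23782923-23783172, plus strand: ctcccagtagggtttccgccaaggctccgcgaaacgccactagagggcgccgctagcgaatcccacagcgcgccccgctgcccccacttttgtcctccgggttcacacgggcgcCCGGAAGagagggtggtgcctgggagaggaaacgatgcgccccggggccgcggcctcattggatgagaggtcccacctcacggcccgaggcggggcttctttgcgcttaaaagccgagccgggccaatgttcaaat
AMD1, chr6:110874534-110874769, plus strand: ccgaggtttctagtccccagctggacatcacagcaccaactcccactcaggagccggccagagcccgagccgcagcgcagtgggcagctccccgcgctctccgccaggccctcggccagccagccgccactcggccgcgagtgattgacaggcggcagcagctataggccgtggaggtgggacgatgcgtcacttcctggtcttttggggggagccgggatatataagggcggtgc
ODC1 held 2 E-boxes, which begin 29 bases before and 5 bases after the internal start. The E-box of SRM begins 199 bases before its start site, and the ETS core of SAT1 begins 136 bases before its own. Neither motif was in the upstream window of ODC1, in the 3 windows of AMD1, or in the windows of SMS, OAZ1, and OAZ2. A match describes the letters alone, and binding was not measured here. Only these exact letters were searched, so a window without a match, such as those of AMD1, may hold other forms of these sites.

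Totals ranged from 11308600 to 17483400 counts per sample, and the 13 mitochondrially encoded genes took 8.06% to 10.1% of them. That share was 9.67% to 10.1% in DMSO and 8.06% to 8.43% at 12 h of PBITE-1, and its part in the results was not tested. The luminal prostate marker KLK3 was present in every sample (7.45 to 148 CPM, counts scaled to the size of the library). The neuroendocrine markers CHGA (25.2 to 60.8 CPM) and SYP (38.9 to 84.6 CPM) were also present in every sample. The basal markers KRT14 and TP63 reached 5.86 and 1.25 CPM, and KRT5 was not in the count table. Of the fibroblast markers, COL1A1 reached 7.19 CPM, and COL1A2 and DCN at most 0.131 CPM. The endothelial markers PECAM1 and VWF reached 1.93 and 1.43 CPM. The leukocyte marker PTPRC was at 0 to 0.269 CPM, so that at most 4 of its reads were counted in any sample. ERG fell by 1.44 on the log2 scale after Dox (SE 0.04, limma adjusted p = 3.29e-22), from 433 to 460 CPM down to 159 to 167 CPM. It also fell under PBITE-1, by 0.68 at 4 h (SE 0.04, limma adjusted p = 1.67e-16), 1.62 at 8 h (SE 0.05, 8.52e-28), and 1.58 at 12 h (SE 0.05, 7.45e-28). CPM in the text were scaled by trimmed mean of M values (TMM) within each experiment. Changes were tested by limma-voom, with p adjusted over the 14164 genes that passed the filter on low counts, and a gene was called at an adjusted p under 0.05. All 10 members passed this filter.

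**Figure D1:**
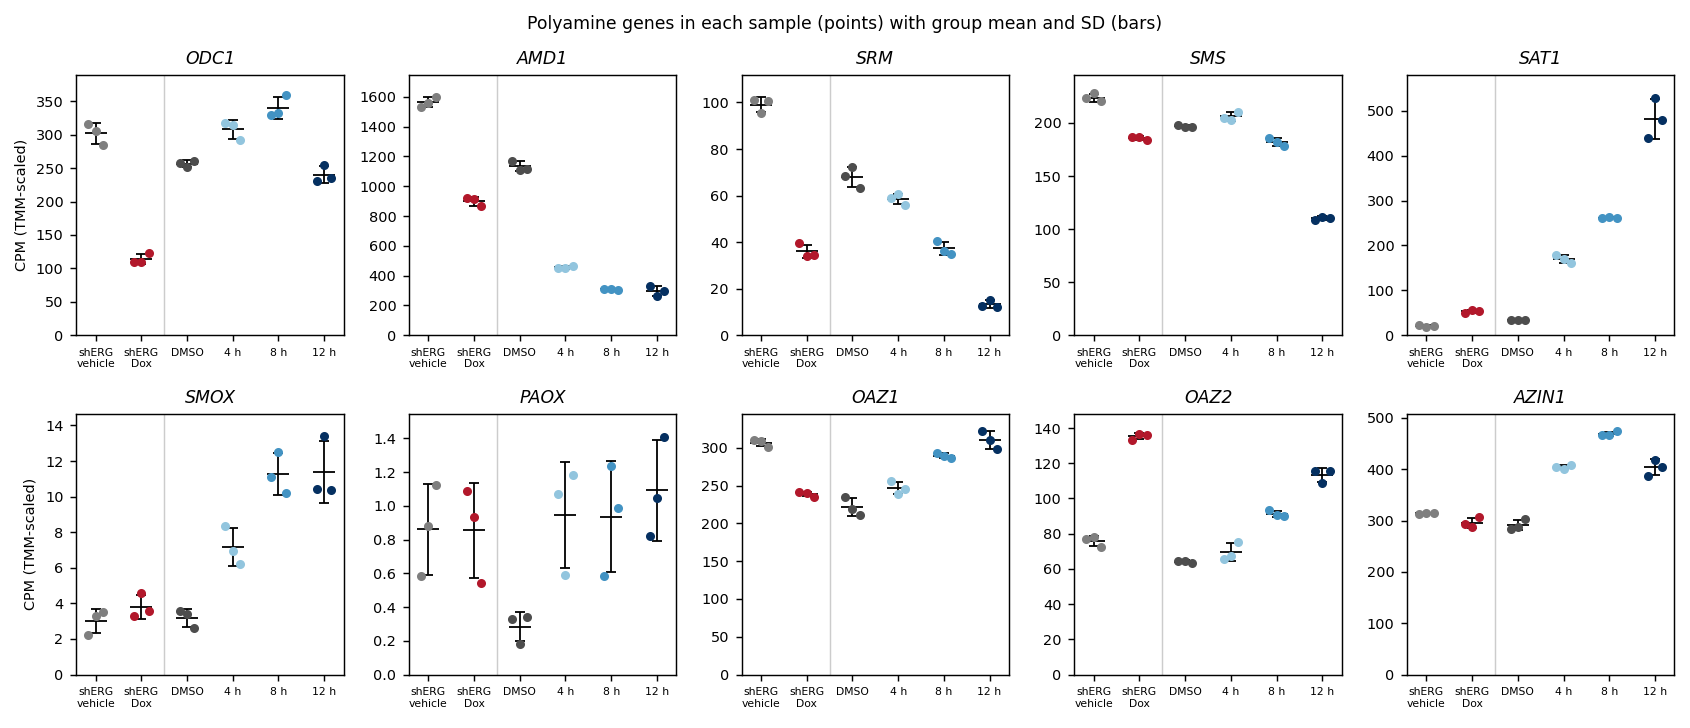
CPM (TMM-scaled, y axes from 0) of the 10 polyamine genes in each of the 18 samples (points), with the mean and SD of each group of 3 (bars); the x axis gives shERG-vehicle, shERG-Dox, DMSO, and PBITE-1 at 4, 8, and 12 h. SAT1 rises at each time of PBITE-1 to 482 CPM, AMD1 drops at 4 h, SRM and SMS are lowest at 12 h, and ODC1 is lowest after Dox.

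The abundance of the members spanned a wide range, which was compared per length as FPKM, the CPM divided by the kilobases of annotated exon. In DMSO, AMD1 was the most abundant member (161 ± 4.75 FPKM, SD, n = 3), ahead of SMS (91.2 ± 0.576) and ODC1 (86.5 ± 1.62). OAZ1 (64.6 ± 3.48), AZIN1 (45.4 ± 1.56), and SRM (35.8 ± 2.32) followed, and SAT1 stood at 13.4 ± 0.051 FPKM. The rare end of the order was OAZ2 (8.35 ± 0.103), SMOX (1.08 ± 0.169), and PAOX (0.125 ± 0.039). Neighbours in this order differed by more than their SDs. After 12 h of PBITE-1 the order had changed, and SAT1 was the most abundant member at 193 ± 17.8 FPKM, followed by OAZ1 at 90.4 ± 3.51 and ODC1 at 80.9 ± 4.14. AMD1 had moved to 42.5 ± 4.91 FPKM, and SRM to 7.04 ± 0.892 FPKM. In shERG-vehicle cells the most abundant members were AMD1 (223 ± 4.64), SMS (104 ± 1.74), and ODC1 (102 ± 5.30), of which SMS and ODC1 did not differ beyond their SD. After Dox they were AMD1 (128 ± 4.28), SMS (86.1 ± 0.807), and OAZ1 (69.5 ± 0.921), while ODC1 was at 38.3 ± 2.64 FPKM. The annotated exons of all transcripts of a gene were joined to give its length, so a gene with much annotated exon, such as AMD1 or OAZ2, reads low on this scale. In DMSO, mean CPM was 64.0 for OAZ2 and 33.4 for SAT1, so their order in FPKM depends on these lengths.

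The first comparison asked how the members responded to induction of the ERG hairpin. All 4 synthesis genes fell after Dox, and SAT1, the acetylating enzyme, rose. Of the 10 members, 6 were lower and 2 were higher, while 35.3% of all genes tested were lower and 35.1% were higher. By the stricter rule, which also asks for a change of more than 2-fold, 2 members were lower (ODC1 and SRM, against 7.19% of all genes) and 1 was higher (SAT1, against 12.0%). The median log2 fold change was -0.18 over the members and 0.02 over all genes. TMM factors were 0.910 to 0.918 in shERG-vehicle and 1.09 to 1.10 in shERG-Dox samples, and with library size as the only scaling the median of all genes moved to 0.28. Under that scaling, 4 members were lower and 4 were higher.

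ODC1 read 315, 306, and 285 CPM in shERG-vehicle cells and 109, 109, and 123 CPM after Dox. The groups were far apart, and ODC1 was 2.66-fold lower (log2 fold change -1.41, SE 0.05, limma adjusted p = 1.36e-19). It ranked 354 of 14164 genes from the most negative log2 fold change. SRM, at chr1:11054584-11060024 on the minus strand, showed a change of the same size, from 101, 95.5, and 101 CPM to 39.4, 34.2, and 34.3 CPM (log2 fold change -1.46, SE 0.06, limma adjusted p = 3.43e-17). AMD1, at chr6:110874770-110895713, went from 1534, 1560, and 1599 CPM to 919.6, 911, and 864 CPM (log2 fold change -0.80, SE 0.02, limma adjusted p = 1.59e-20). The spermine synthase SMS fell least, by 0.27 (SE 0.03, limma adjusted p = 1.44e-07), from 221 to 228 CPM down to 184 to 187 CPM. Its groups did not overlap on this scale, but its log2 fold change was -0.01 (limma adjusted p = 0.843) with library size as the only scaling.

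Among the catabolic enzymes, SAT1 rose from 22.4, 18.7, and 20.9 CPM to 49.8, 57.3, and 53.7 CPM after Dox. This was a 2.61-fold increase (log2 fold change 1.38, SE 0.08, limma adjusted p = 3.64e-14) with no overlap between the groups. SMOX, the spermine oxidase, was rare, with 27 to 59 counts per library in this experiment, and did not pass the test (log2 fold change 0.32, 95% interval -0.17 to 0.80, limma adjusted p = 0.231). With library size as the only scaling it was called higher (0.58, limma adjusted p = 0.0291). PAOX had only 7 to 15 counts per library, and its interval (-0.90 to 0.85 on the log2 scale) was too wide to show a change smaller than about that size.

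The antizymes went in opposite directions after Dox. OAZ2 rose from 76.8, 78.1, and 72.5 CPM to 133, 137, and 136 CPM (log2 fold change 0.84, SE 0.05, limma adjusted p = 7.24e-15), and OAZ1 fell from 310.5, 309, and 301 CPM to 241, 240.5, and 235 CPM (log2 fold change -0.36, SE 0.03, limma adjusted p = 1.48e-10). OAZ1 was the more abundant antizyme per length in both groups. AZIN1, the antizyme inhibitor, passed the test with a log2 fold change of only -0.09 (SE 0.03, limma adjusted p = 0.0169). That call was not stable. AZIN1 was higher by 0.07 with upper-quartile scaling (limma adjusted p = 0.0405) and by 0.17 with library size only (limma adjusted p = 3.34e-05), and it was lost without replicate 2 of shERG-vehicle (limma adjusted p = 0.0573) or replicate 2 of shERG-Dox (limma adjusted p = 0.149), and with 10 or more counts required in all samples (-0.04, limma adjusted p = 0.278).

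The second comparison followed the members over 4, 8, and 12 h of PBITE-1 against DMSO. SAT1 climbed at every time, AMD1 fell early, SRM and SMS fell late, and ODC1 was first above and then close to its DMSO level. At 4 h, 2 members were lower (24.7% of all genes) and 6 were higher (26.4%). At 8 h, 3 were lower (37.0% of all genes) and 7 were higher (35.9%), and at 12 h 4 were lower (39.4%) and 6 were higher (39.4%). By more than 2-fold, AMD1 alone was lower at 4 h (2.99% of all genes) and at 8 h (8.86%), and AMD1 and SRM were lower at 12 h (15.4%). SAT1, PAOX, and SMOX were higher by more than 2-fold at 4 h (7.28% of all genes), 8 h (14.9%), and 12 h (17.1%). The median log2 fold change of the members was 0.21, 0.46, and 0.48 at the 3 times, and that of all genes lay between -0.02 and -0.01.

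**Figure D2:**
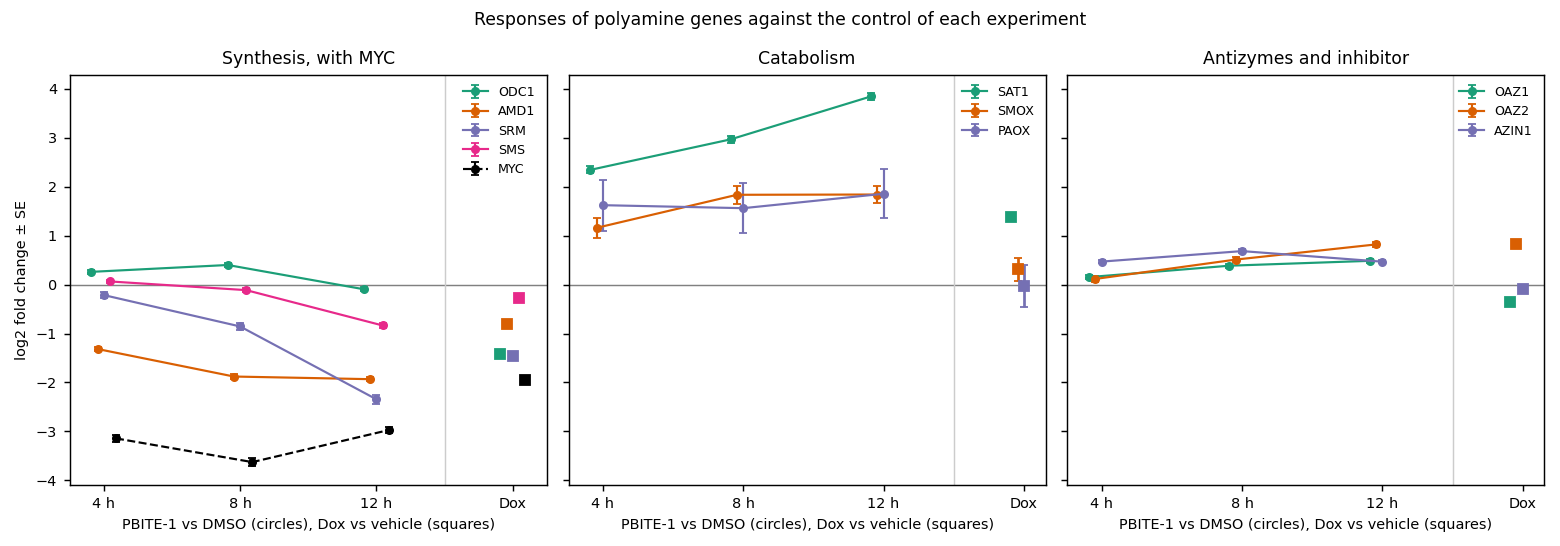
Log2 fold change ± SE (y axis) of the synthesis genes with MYC, the catabolic genes, and the antizyme genes, against DMSO at 4, 8, and 12 h of PBITE-1 (circles, joined by lines) and against vehicle after Dox (squares, right of the vertical line). SAT1 reaches 3.85 at 12 h, SRM reaches -2.34, and ODC1 stays between -0.10 and 0.40 under PBITE-1 but is at -1.41 after Dox.

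SAT1, at chrX:23783173-23786226, changed most among the members. It read 33.3, 33.4, and 33.6 CPM in DMSO, 179, 170.4, and 162 CPM at 4 h, 261, 263, and 262 CPM at 8 h, and 439, 527, and 479.9 CPM at 12 h. Every PBITE-1 sample was above every DMSO sample, and each time was above the one before with no overlap. The increase was 5.08-fold at 4 h (log2 fold change 2.35, SE 0.07, limma adjusted p = 6.80e-27), 7.83-fold at 8 h (2.97, SE 0.07, 3.45e-31), and 14.4-fold at 12 h (3.85, SE 0.07, 1.67e-35). At 12 h it ranked 171 of 14164 genes from the most positive log2 fold change. The steps between times also passed the test, with log2 fold changes of 0.62 from 4 to 8 h (SE 0.05, limma adjusted p = 3.28e-13) and 0.88 from 8 to 12 h (SE 0.04, limma adjusted p = 2.05e-19).

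SMOX and PAOX were also higher than in DMSO at each time. SMOX, at chr20:4120980-4187747, read 3.55, 3.42, and 2.62 CPM in DMSO, 8.32, 6.94, and 6.21 CPM at 4 h, 11.1, 12.5, and 10.2 CPM at 8 h, and 10.4, 13.4, and 10.3 CPM at 12 h. The groups did not overlap with DMSO, and the log2 fold change was 1.16 at 4 h (SE 0.20, limma adjusted p = 5.35e-06), 1.84 at 8 h (SE 0.18, 1.68e-11), and 1.84 at 12 h (SE 0.18, 1.01e-11). SMOX rose from 4 to 8 h by 0.68 (SE 0.15, limma adjusted p = 2.15e-04), and from 8 to 12 h its log2 fold change was 0.01 (95% interval -0.25 to 0.26). PAOX, a peroxisomal enzyme at chr10:133379234-133391694, rests on few reads, with 5, 3, and 6 counts in DMSO against 8 to 16 in the 4 h group, 10 to 18 in the 8 h group, and 11 to 21 in the 12 h group. Its log2 fold changes were 1.62 (SE 0.52, limma adjusted p = 0.00875), 1.56 (SE 0.52, 0.00698), and 1.86 (SE 0.50, 0.00110). In shERG-vehicle cells PAOX had 7 to 15 counts, so that DMSO was the only group with fewer than 7.

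The synthesis genes did not move at the same times. AMD1 read 1171, 1111, and 1116 CPM in DMSO, 448, 451, and 465 CPM at 4 h, 308, 312, and 303 CPM at 8 h, and 332, 263, and 299.8 CPM at 12 h. It was lower in all 9 PBITE-1 samples, by 1.32 at 4 h (SE 0.04, limma adjusted p = 3.17e-26), 1.88 at 8 h (SE 0.04, 3.37e-31), and 1.93 at 12 h (SE 0.04, 7.97e-32) on the log2 scale. From 8 to 12 h the difference did not pass the test (-0.05, 95% interval -0.15 to 0.04). Without replicate 1 of the 12 h group it did (-0.13, limma adjusted p = 0.0105), and without replicate 2 it was 0.03.

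SRM, the spermidine synthase, fell later than AMD1. It read 68.4, 72.2, and 63.4 CPM in DMSO, 58.9, 60.7, and 56.1 CPM at 4 h, 40.6, 36.1, and 35.04 CPM at 8 h, and 12.7, 15.3, and 12.1 CPM at 12 h. All groups were separate, and the log2 fold change against DMSO was -0.21 at 4 h (SE 0.06, limma adjusted p = 0.00437), -0.85 at 8 h (SE 0.07, 3.92e-14), and then -2.34 at 12 h (SE 0.09, 1.35e-23). The step from 8 to 12 h alone was -1.49 (SE 0.10, limma adjusted p = 9.68e-16), the most negative of the members. SMS, at chrX:21940573-21994835, kept 203 to 211 CPM at 4 h against 196 to 198 CPM in DMSO (log2 fold change 0.07, 95% interval -0.01 to 0.14, limma adjusted p = 0.167). It was slightly lower at 8 h (-0.11, SE 0.04, limma adjusted p = 0.0110) and dropped to 109, 112, and 111 CPM at 12 h (-0.83, SE 0.04, limma adjusted p = 1.87e-20).

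ODC1, at chr2:10439968-10448504 on the minus strand, differed from the other synthesis genes. It read 258, 251, and 261 CPM in DMSO, 317, 315, and 292 CPM at 4 h, 329, 332, and 359 CPM at 8 h, and 231, 254, and 235 CPM at 12 h. ODC1 rose at 4 h (log2 fold change 0.26, SE 0.04, limma adjusted p = 2.10e-06) and at 8 h (0.40, SE 0.04, 4.52e-11), and then fell from 8 to 12 h by 0.50 (SE 0.04, limma adjusted p = 6.50e-13). The 12 h and DMSO samples overlapped, and the log2 fold change of -0.10 (95% interval -0.18 to -0.01, limma adjusted p = 0.0417) was not a stable call. It was lost in 5 of 10 other settings, among them DESeq2 (adjusted p = 0.0935) and RLE scaling (limma adjusted p = 0.0658), and without replicate 1 or 3 of DMSO or replicate 1 or 3 of the 12 h group (limma adjusted p = 0.0782 to 0.158). The rise from 4 to 8 h (0.14, limma adjusted p = 0.00480) was lost without replicate 3 of the 4 h group (limma adjusted p = 0.0662) or replicate 3 of the 8 h group (limma adjusted p = 0.0572).

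MYC was followed beside ODC1. MYC read 479, 476, and 479.9 CPM in shERG-vehicle and 119 to 129 CPM after Dox, and fell by 1.95 on the log2 scale (SE 0.04, limma adjusted p = 1.25e-24). Under PBITE-1 it went from 328 to 355 CPM in DMSO to between 35.9 and 40.5 CPM at 4 h, between 26.4 and 29.3 CPM at 8 h, and between 36.0 and 50.6 CPM at 12 h. These were log2 fold changes of -3.14 (SE 0.07, limma adjusted p = 7.81e-31), -3.63 (SE 0.08, 3.76e-32), and -2.97 (SE 0.07, 5.90e-32). ODC1 was therefore called lower together with MYC after Dox, and higher at 4 and 8 h of PBITE-1 when MYC was called lower. The count ratio of ODC1 to MYC, which needs no scaling between libraries, was 0.632 ± 0.034 (SD, n = 3) in shERG-vehicle and 0.915 ± 0.037 after Dox, against 0.758 ± 0.045 in DMSO and 8.05 ± 0.793, 12.4 ± 1.07, and 5.63 ± 1.29 at 4, 8, and 12 h. The ratios given here were chosen after the values of the members were seen and are descriptions without a test.

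**Figure D3:**
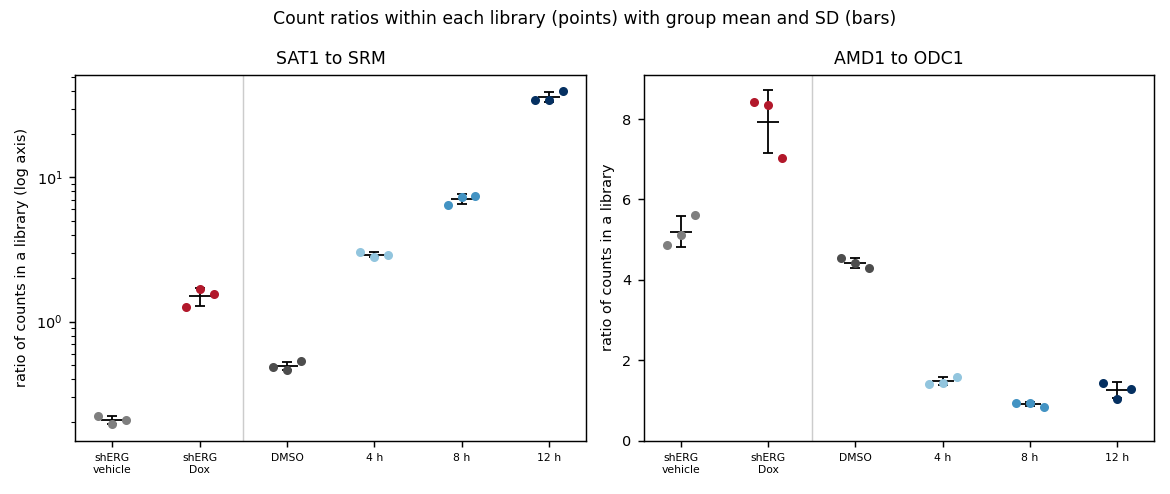
Ratio of SAT1 to SRM counts (left, log axis) and of AMD1 to ODC1 counts (right, linear axis from 0) in each of the 18 libraries (points), with group mean and SD (bars, n = 3). The SAT1 to SRM ratio climbs from 0.493 in DMSO to 36.2 at 12 h, and the AMD1 to ODC1 ratio is higher after Dox than in vehicle but lower under PBITE-1 than in DMSO.

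Count ratios were also taken between other members, SAT1 with SRM, which had the most positive and the most negative log2 fold change at 12 h, and AMD1 with ODC1, which are both synthesis genes. They compare RNA counts and say nothing of enzyme activity. SAT1 counts were 0.208 ± 0.013 times those of SRM in shERG-vehicle and 1.501 ± 0.213 times after Dox. In the second experiment this ratio was 0.493 ± 0.033 in DMSO, 2.91 ± 0.118 at 4 h, 7.06 ± 0.561 at 8 h, and 36.2 ± 3.00 at 12 h, with no overlap between the groups. The ratio of AMD1 to ODC1 went from 5.20 ± 0.385 to 7.94 ± 0.778 after Dox, and from 4.41 ± 0.130 in DMSO to 1.48 ± 0.099, 0.906 ± 0.054, and 1.25 ± 0.201 under PBITE-1. The direction of this ratio was thus opposite in the first and second experiment.

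All 3 genes of antizyme control were higher than in DMSO at 8 h (35.9% of all genes) and 12 h (39.4%) of PBITE-1. These are too few genes to be read against those shares. OAZ2, at chr15:64687573-64703281 on the minus strand, read 64.7, 64.3, and 63.2 CPM in DMSO, 65.7, 67.2, and 75.4 CPM at 4 h, 93.2, 90.4, and 89.98 CPM at 8 h, and 115, 109, and 116 CPM at 12 h. The 4 h difference of 0.12 did not pass the test (95% interval 0.0012 to 0.23, limma adjusted p = 0.0861) except without replicate 1 of that group (limma adjusted p = 0.0427), and OAZ2 rose at 8 h (0.51, SE 0.05, limma adjusted p = 6.70e-11) and at 12 h (0.82, SE 0.05, 2.51e-17). OAZ1, at chr19:2269509-2273490, rose more gradually, by 0.15 (SE 0.04, limma adjusted p = 0.00239), 0.39 (SE 0.04, 9.87e-11), and 0.49 (SE 0.04, 1.12e-13), from 211 to 235 CPM in DMSO up to 299 to 323 CPM at 12 h. Its step from 8 to 12 h (0.10, limma adjusted p = 0.0328) was lost without replicate 1, 2, or 3 of the 8 h group and without replicate 1 or 2 of the 12 h group (limma adjusted p = 0.0514 to 0.149), with no filter on low counts (0.0636), and with 10 or more counts required in all samples (0.0577).

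AZIN1, which works against the antizymes, peaked at 8 h. It read 284, 288, and 303 CPM in DMSO, 404, 401, and 408 CPM at 4 h, 467, 466, and 474 CPM at 8 h, and 387, 419, and 405 CPM at 12 h. The log2 fold change against DMSO was 0.47 (SE 0.04, limma adjusted p = 1.03e-13), 0.69 (SE 0.04, 1.62e-19), and 0.47 (SE 0.04, 1.52e-14), and the fall from 8 to 12 h was 0.22 on the log2 scale (limma adjusted p = 2.07e-06). The count ratio of OAZ1 to AZIN1 was 0.762 ± 0.065 in DMSO and 0.610 ± 0.019, 0.617 ± 0.012, and 0.770 ± 0.054 at the 3 times, so the means at 12 h and in DMSO lay within an SD of each other and the samples overlapped. Antisense genes overlap OAZ2 and AZIN1 in the annotation, and use of strand in the counting is not given in the sources used here, so part of these counts could come from the other strand.

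Between neighbouring times, 3 members were lower and 6 higher at 8 h than at 4 h, against 26.3% and 26.7% of all genes. From 8 to 12 h, 4 were lower and 3 higher, against 32.5% and 27.8% of all genes. ODC1, SRM, SMS, and AZIN1 were those that were lower at 12 h than at 8 h. The 3 genes whose pattern over the 18 samples was most like that of ODC1, with each sample set against the mean of its own control group, were CDC6 (Pearson r = 0.993), MDH1 (0.990), and CDCA5 (0.990), out of 11311 genes compared. CDC6, a licensing factor of DNA replication, had log2 fold changes of -1.85 after Dox and 0.39, 0.53, and 0.08 at 4, 8, and 12 h. The genes most like SAT1 were PARD6B (r = 0.992), IRGQ (0.989), and LCA5 (0.989). The samples share their controls in these correlations, which are descriptions over groups that stand far apart.

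The response to 12 h of PBITE-1 was then set against the response to Dox by an interaction term in a fit of all 18 samples. The 2 responses differed in size for 9 of the 10 members, 3 of them more negative under PBITE-1 and 6 more positive, while 35.1% and 33.3% of all genes tested were so. ODC1 fell after Dox and was near its control at 12 h of PBITE-1, a difference of 1.27 on the log2 scale (SE 0.07, limma adjusted p = 1.65e-21). AMD1 fell further under PBITE-1 (difference -1.17, SE 0.05, limma adjusted p = 1.10e-23), as did SRM (-0.93, SE 0.12, 1.85e-09) and SMS (-0.61, SE 0.05, 1.72e-13). SAT1 rose in both experiments and by 2.42 more under PBITE-1 (SE 0.12, limma adjusted p = 2.31e-22). OAZ1 fell after Dox and rose under PBITE-1 (difference 0.81, SE 0.05, limma adjusted p = 1.21e-17). OAZ2 rose in both, and the difference of -0.06 (95% interval -0.20 to 0.08, limma adjusted p = 0.482) did not pass the test, though it did with upper-quartile scaling (-0.18, limma adjusted p = 0.0189) and with library size only (-0.32, limma adjusted p = 9.38e-05). The responses come from 2 lines and 2 agents, and the labels give no time for Dox.

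The genes around the polyamine pathway were taken as a list of 27, of which 24 passed the filter on low counts and 3 (SATL1, AOC1, and ARG1) had at most 6 counts in any library. After Dox 9 were lower and 7 higher (37.5% and 29.2% of the 24), against 35.3% and 35.1% of all genes. At 4 h of PBITE-1, 7 were lower and 7 higher (29.2% each, against 24.7% and 26.4%), and at 8 h the counts were 11 and 7 (45.8% and 29.2%, against 37.0% and 35.9%). At 12 h, 14 were lower and 6 higher (58.3% and 25.0%), against 39.4% of all genes in each direction. The shares of the list lay furthest from those of all genes at 12 h, where more were lower and fewer were higher. They went the same way at 8 h by less, and neither departure was tested. The groups within the list hold 3 to 5 tested genes each, too few to be read against these shares. The median log2 fold change of the list was -0.03 after Dox and -0.05, -0.05, and -0.39 at 4, 8, and 12 h. The 14 genes named below passed the test with a change of more than 2-fold in at least 1 of these 4 comparisons.

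**Figure D4:**
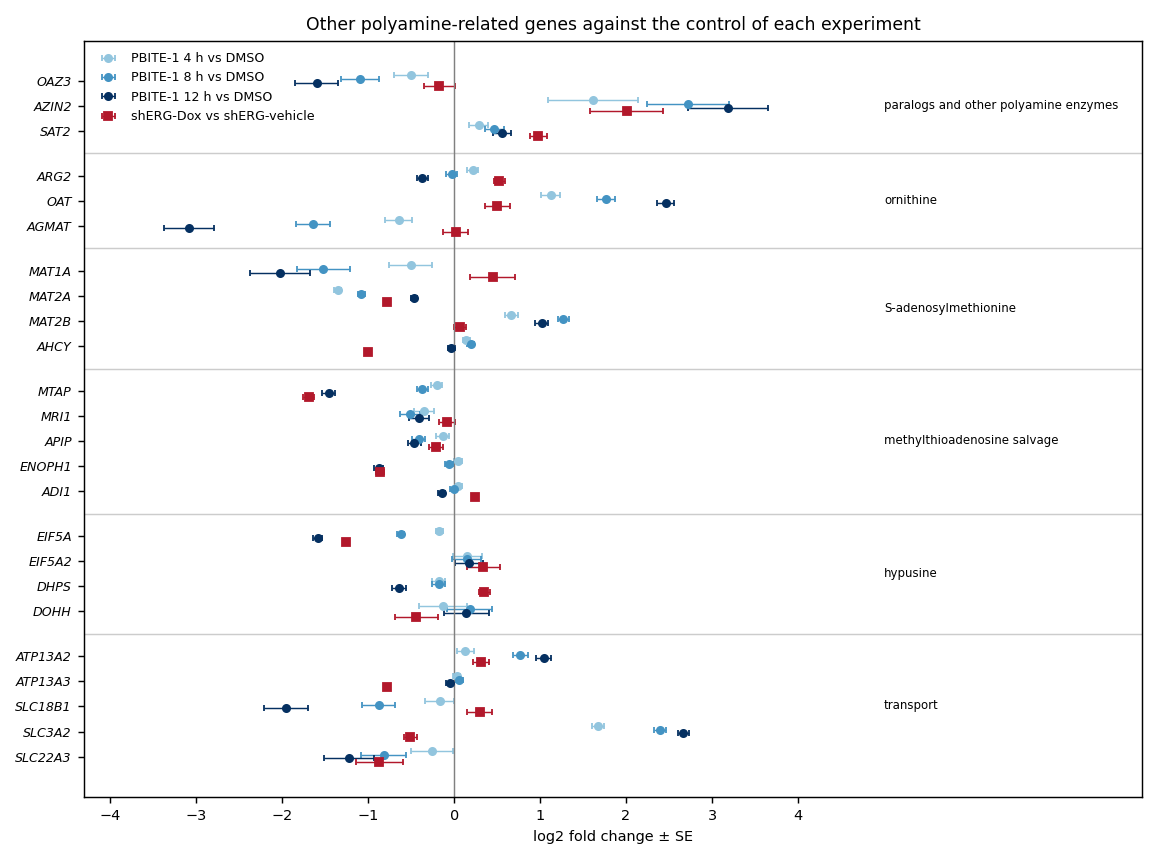
Log2 fold change ± SE (x axis) of the 24 tested genes around the polyamine pathway (rows, grouped by role) after Dox against vehicle (red squares) and at 4, 8, and 12 h of PBITE-1 against DMSO (light to dark blue circles). SLC3A2 and OAT lie to the right and AGMAT to the left under PBITE-1, and EIF5A and MTAP are left of 0 in both experiments.

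Of the 3 tested genes around ornithine, 2 were higher after Dox (35.1% of all genes), while under PBITE-1 1 was lower and 2 higher at 4 h (24.7% and 26.4% of all genes), 1 and 1 at 8 h (37.0% and 35.9%), and 2 and 1 at 12 h (39.4% each). Of the 5 transporters, 3 were lower and 1 higher after Dox (35.3% and 35.1% of all genes). Under PBITE-1, 1 was higher at 4 h (26.4%), and 2 were lower and 2 higher both at 8 h (37.0% and 35.9%) and at 12 h (39.4% each). SLC3A2, the heavy chain of amino acid exchangers that has also been linked to polyamine export, rose from 37.6 ± 1.51 CPM in DMSO to 239.6 ± 22.6 CPM at 12 h of PBITE-1 (log2 fold change 2.67, SE 0.07, limma adjusted p = 3.18e-30) and fell after Dox by 0.51 (SE 0.08, limma adjusted p = 1.38e-06). The difference between these responses was 3.13 (SE 0.12, limma adjusted p = 5.41e-27). OAT, the mitochondrial ornithine aminotransferase, rose at each time to 54.8 ± 2.19 CPM at 12 h against 9.97 ± 0.469 CPM in DMSO (2.46, SE 0.10, limma adjusted p = 9.59e-24). AGMAT, an agmatinase homologue, fell by 3.08 at 12 h (SE 0.29, limma adjusted p = 2.23e-12), from 154 to 185 counts per library down to 12 to 25. Of the transporters, ATP13A2, a lysosomal polyamine exporter, rose by 1.04 at 12 h (SE 0.09, limma adjusted p = 1.51e-13), and SLC18B1, a vesicular polyamine transporter, fell by 1.95 (SE 0.26, limma adjusted p = 8.88e-09). SLC22A3, an organic cation transporter, fell by 1.22 at 12 h (SE 0.29, limma adjusted p = 2.41e-04) on 14 to 59 counts per library.

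Of the 4 genes of S-adenosylmethionine supply and use, 2 were lower after Dox (35.3% of all genes), and under PBITE-1 1 was lower and 2 higher at 4 h (24.7% and 26.4%), 2 and 2 at 8 h (37.0% and 35.9%), and 2 and 1 at 12 h (39.4% each). MAT2A, which makes S-adenosylmethionine outside the liver, dropped from 439 ± 16.1 CPM in DMSO to 172 ± 9.29 CPM at 4 h (log2 fold change -1.36, SE 0.04, limma adjusted p = 1.85e-26) and stood at 208 ± 3.01 CPM at 8 h and 318 ± 12.7 CPM at 12 h, where it was still lower (-0.47, SE 0.04, limma adjusted p = 6.27e-14). Its regulatory subunit MAT2B rose by 1.27 at 8 h (SE 0.07, limma adjusted p = 4.12e-19), and the liver form MAT1A, with 8 to 55 counts per library in this experiment, fell by 2.03 at 12 h (SE 0.34, limma adjusted p = 1.65e-06). AHCY, which breaks down S-adenosylhomocysteine, fell by 1.00 after Dox (SE 0.04, limma adjusted p = 1.51e-18) and at 12 h of PBITE-1 had a log2 fold change of -0.03 (limma adjusted p = 0.463).

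Of the 5 genes that salvage methylthioadenosine, the by-product of SRM and SMS, 3 were lower and 1 higher after Dox (35.3% and 35.1% of all genes), while under PBITE-1 2 were below DMSO by 4 h (24.7%), 3 by 8 h (37.0%), and 5 by 12 h (39.4%). Of the 4 genes of hypusine, which is made from spermidine, 1 was lower and 1 higher after Dox (35.3% and 35.1% of all genes). At each time of PBITE-1, 2 of them were lower (24.7% of all genes at 4 h, 37.0% at 8 h, and 39.4% at 12 h). MTAP, the first enzyme of the salvage, fell by 1.69 after Dox (SE 0.07, limma adjusted p = 4.92e-18) and by 0.20, 0.37, and 1.46 at 4, 8, and 12 h (12 h SE 0.08, limma adjusted p = 2.13e-19). EIF5A, the translation factor that carries hypusine, fell from 397 ± 7.86 to 166 ± 3.67 CPM after Dox (log2 fold change -1.26, SE 0.03, limma adjusted p = 2.53e-21) and from 336 ± 24.5 to 112 ± 3.35 CPM at 12 h of PBITE-1 (-1.59, SE 0.05, limma adjusted p = 9.81e-28). Of the 3 paralogs and other enzymes, 2 were higher after Dox (35.1% of all genes). Under PBITE-1, 1 was lower and 2 were higher at 4 h (24.7% and 26.4%), at 8 h (37.0% and 35.9%), and at 12 h (39.4% each). AZIN2 rose by 2.01 after Dox (SE 0.43, limma adjusted p = 1.76e-04) and by 3.18 at 12 h (SE 0.46, limma adjusted p = 8.77e-08), on 2 to 51 counts per library. OAZ3, an antizyme known from the testis, fell by 1.60 at 12 h (SE 0.25, limma adjusted p = 2.61e-07) on 21 to 105 counts.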

How the data were processed

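RNA-seq was performed on 18 VCaP samples in 6 groups of 3, and groups were taken from the GEO labels. The authors deposited whole-number counts per gene without normalization. The study's methods name Kallisto with edgeR and limma-voom, while the submitters' processing notes list STAR, featureCounts, and hg38. Which of these made the counts, the annotation, and the use of strand are not given in the sources used here, and pseudogene copies of AMD1, OAZ1, and SRM held at most 9 counts.

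Totals were 11308600 to 17483400 counts, and a floor of 3 counts equals 0.171 to 0.269 CPM. Of 22034 genes, 22011 matched a symbol, and edgeR's filterByExpr over the 6 groups kept 14164 (64.3%). TMM-scaled counts were tested by limma-voom (R 4.3.3, edgeR 4.0.16, limma 3.58.1), the 6 shERG and 12 parental samples in separate fits, with Benjamini-Hochberg adjustment over the genes tested. Intervals are 95% and come from the moderated standard errors. The interaction came from a fit of all 18 samples. Alternatives were RLE, upper-quartile, and library size scaling, edgeR's quasi-likelihood test, DESeq2 1.42.0, no filter on low counts, 10 or more counts required in all samples, other sets of samples, the replicate number as a block, and leaving out each sample. Genes most like ODC1 and SAT1 were ranked on log2 CPM (prior count 2, mean count at least 50). All members, MYC, ERG, and the list genes past both thresholds were named. The members, the lists, and the tests were chosen with earlier results of these data known. The procedure was tested on simulated data. Within groups, the chi-square statistic per degree of freedom was 1.70 to 5.04 over 18 pairs of samples, so none was counted as a copy.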

Additional observations from a re-analysis of the deposited data

Results flagged for a closer look

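The difference between the response to PBITE-1 at 12 h and the response to Dox, each against its own control, passed the interaction test in limma for 9 members. By the same test, 35.1% of all genes tested were more negative under PBITE-1 and 33.3% were more positive. On the log2 scale the difference was 2.42 for SAT1, 1.84 for PAOX, 1.49 for SMOX, 1.27 for ODC1, 0.81 for OAZ1, and 0.52 for AZIN1, and it was -1.17 for AMD1, -0.93 for SRM, and -0.61 for SMS. OAZ1 was called lower after Dox and higher under PBITE-1, and the direction of AZIN1 after Dox depends on the scaling. The value for PAOX rests on 3 to 21 counts per library. Groups of 3 samples were not searched for single outlying samples.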

How the results depend on the processing

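Of 1503 recomputed log2 fold changes of the members, 1459 kept their direction and their side of the threshold. None of 18 correlations of same-numbered samples exceeded 0.1 (range -0.02 to 0.04), so no shared effect of the replicate number was seen. Whether same-numbered samples were prepared together is not given in the labels. With the replicate block, the count of members lower and higher was 6 and 2 after Dox and 4 and 6 at 12 h of PBITE-1, and no call of a member changed. With library size only, 4 members were lower and 4 higher after Dox, and 3184 genes were lower, 506 of them by more than 2-fold. The log2 fold change after Dox turned to 0.14 with upper-quartile scaling and 0.24 with library size only for PAOX, and to 0.074 and 0.17 for AZIN1. From 8 to 12 h, that of SMOX turned to -0.0065 with 10 or more counts required in all samples and to -0.0075 with all 18 samples in 1 fit. Under that stricter filter, genes higher by more than 2-fold after Dox numbered 915, those lower and higher were 213 and 554 at 4 h and 788 and 1354 at 8 h, and PAOX could not be tested. Without single samples, the log2 fold change of PAOX ranged from -0.25 to 0.26 after Dox, -0.37 to 0.30 from 4 to 8 h, and -0.064 to 0.55 from 8 to 12 h. From 8 to 12 h it ranged from -0.12 to 0.081 for SMOX and from -0.13 to 0.034 for AMD1. The causes were not tested. Counts of 3 to 21 limit what PAOX can show.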
